A study of Mus musculus with 7 samples.

Results

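The genes described here make cholesterol, sense it, move it between membranes or export it. The group holds 29 genes, listed by their function but with earlier results of these data known. Of them, 27 had a probe set that the platform annotation pairs with that symbol alone, out of 18193 such genes on the array. Acat2, the cytosolic thiolase that opens the pathway, and Soat1, which esterifies cholesterol for storage, had none and were not analysed here. Each gene is represented by its brightest probe set, the one with the highest mean over all lenses. The genes measured on the uptake side are those that handle cholesterol after it has entered the cell.

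Animal cells build cholesterol from acetyl-CoA through mevalonate, isoprenoid diphosphates, squalene and lanosterol. When sterols run low in the endoplasmic reticulum, Scap carries the SREBP transcription factors (Srebf1, Srebf2) to the Golgi, where they are cut and released to switch on the pathway's genes, while Insig1 and Insig2 hold Scap back when sterols are plentiful. The lens has no blood supply and its fibre cell membranes are exceptionally rich in cholesterol, and inherited or drug-induced block of late steps of the pathway is known to cause cataract.

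Lens epithelium was taken by laser capture from 28-day-old littermate mice on a C57Bl/6 background. The wild-type (WT) group comprised 3 lenses of 3 animals, the left eyes of animals 2, 5 and 6 (lenses 2L, 5L and 6L). The SPARC-null (KO) group comprised 4 lenses of 3 animals, both eyes of animal 1 (1L, 1R) and the left eyes of animals 4 and 7 (4L, 7L), which lack SPARC, a secreted matrix protein. How the deletion was made is not described in the labels. Animal 7 was labelled male and all others female. The comparison asks which transcripts differ without SPARC. The animal was the replicate, so the mean of 1L and 1R stood for animal 1, giving n = 3 per group, and with so few arrays the precision of every value is limited.

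The arrays were on a common scale, with a trimmed mean signal of 500.003 to 500.004. Sparc itself had signals of 27371 to 49972 in WT lenses and 8.14 to 70.5 in KO lenses. The ratio of Gapdh signal at the 3' end to that at the 5' end, a gauge of RNA integrity, was lowest in WT lens 2L, at 3.75, and ran from 9.06 to 15.9 elsewhere. This ratio rises as signal at the 5' end is lost, so by this gauge lens 2L had the least loss. The actin ratio was also lowest in 2L, at 5.89, and ran from 13.8 to 23.8 elsewhere. Lens 2L therefore stands apart, and the genes are also described without its animal. Of 12 lens epithelium markers, 11 lay above the highest bacterial control probe set (signal 45.5, a gauge of background) in every lens, and the remaining one was Foxe3. All 9 photoreceptor, 11 lens fibre and 8 stroma markers measured did so as well. The summed signal of 19 macrophage and leukocyte markers ran from 3689 to 6098 in KO lenses and from 2247 to 3334 in WT lenses, with 9 of them above the control in every lens and Aif1 under it in all. Their median log2 difference was 0.50. At an unadjusted limma p under 0.05, 6 were higher and 1 lower in KO, against 4.06% of all probe sets, and 0 passed an adjusted p of 0.05. The summed signal of 10 blood and endothelial markers ran from 1022 to 1393 in KO lenses and from 481 to 963 in WT lenses, with 3 above the control in every lens and Pecam1, Tie1 and Hba-a1 under it in all. Their median log2 difference was 0.21. The 7 markers of pigmented ciliary and iris epithelium, all above the control in every lens, summed to between 15687 and 45005 in KO lenses and to between 9660 and 26744 in WT lenses, with a median log2 difference of 0.70. The 7 of corneal epithelium summed to between 6866 and 19011 in KO lenses and to between 11204 and 21181 in WT lenses, with a median of -1.15, 4 above the control in every lens and Krtdap under it in all. These sums of both lists overlapped between groups. The part of these cells in the values below was not tested. In such bulk samples fewer cells of a type and less RNA per cell cannot be told apart.

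Every measured step of cholesterol synthesis and handling was detected in the captured samples, and none passed the test for a difference between KO and WT. All 27 genes exceeded that bacterial control in each of the 7 lenses, the lowest single signal being 92.0 (Srebf2, WT lens 6L). 0 of 27 genes passed an adjusted p of 0.05 in limma, against 0.00666% of 45037 probe sets tested. 0 of 27 had an unadjusted limma p under 0.05, against 4.06% of all probe sets, and the smallest was 0.0566 (Hmgcs1). By value 15 genes were higher and 12 lower in KO, with log2 differences from -0.31 (Abca1) to 0.48 (Hmgcs1) and a median of 0.08, beside -0.01 over all probe sets. The limma adjusted p was 0.99988 for 26 of the genes and 0.999906 for Npc1.

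These data also bound how large a change could have been missed at the brightest probe set of each gene. The 95% confidence interval of the KO minus WT difference lay within 2-fold in either direction for 25 of 27 genes and within 3-fold for all 27. Both genes outside the narrower bound could have been higher in KO by more than that, Dhcr7 by up to 2.25-fold and Srebf2 by up to 2.74-fold. The standard errors ran from 0.19 to 0.51 on the log2 scale with a median of 0.26, against a median of 0.34 for all probe sets. These bounds do not cover the genes' other probe sets, such as a weaker one of Hsd17b7 at -0.76 (SE 0.37).

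**Figure D1:**
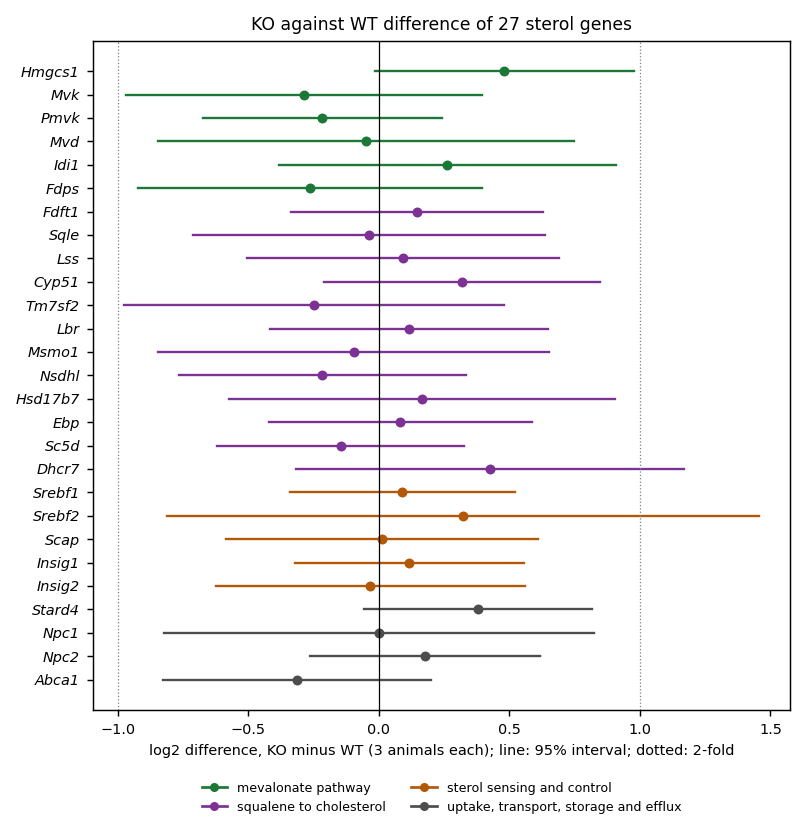
Log2 difference between KO and WT animals (x axis, log2 scale) for each of the 27 genes, coloured by role, with points for the estimate, lines for the 95% interval (3 animals against 3) and dotted lines at a 2-fold change. All 27 intervals include 0, and those of Dhcr7 and Srebf2 alone reach past a dotted line.

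The members share a feature of their promoters that the choice of genes did not use. Of the 29 genes, 24 had a promoter in the RefSeq table of build GRCm38.p6, where some genes have several starts. In the 250 bases before the start, the NF-Y box CCAAT, read on both strands, was present in 20 of the 22 genes that also had a probe set (90.9%) and occurred more than once in 12 (54.5%). Among array genes above the highest bacterial control in all lenses it was present in 40.4% of 9627 and more than once in 15.1%. Per promoter it was present in 22 of 32 member promoters (68.8%) against 33.8% of all 32851. The GC box GGGCGG was present in 21 of the same 22 members (95.5%) and 6164 of those 9627 array genes, and per promoter in 78.1% of member promoters against 32.7% of all. The sterol regulatory element searched as TCACNCCAC was found in 1 of the same 22 members, Hmgcs1 (4.55%), and in 1.22% of those 9627 array genes. Per promoter it was in 3.1% of member promoters against 1.05% of all. Other forms of the sterol regulatory element were not searched, so a promoter without this match may still hold one. No match of these motifs overlapped a match of another in the members. A match is a description of letters, not of binding.

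Hmgcs1 is shown because it holds the match to the searched form of the sterol regulatory element and the largest difference of the group. Mvk is shown for the most NF-Y boxes, 5 in all, and Idi1 as a promoter with 2 of them close to the start. Capitals mark NF-Y boxes on either strand (CCAAT or its reverse complement) and, in Hmgcs1, the sterol regulatory element at 137 to 129 bases before the start. The Hmgcs1 stretch is chr13:119690101-119690350 and that of Mvk chr5:114444019-114444268, each with 250 bases, and that of Idi1 chr13:8885486-8885605 with 120 bases, all on the plus strand and written 5′ to 3′ up to the start.
Hmgcs1: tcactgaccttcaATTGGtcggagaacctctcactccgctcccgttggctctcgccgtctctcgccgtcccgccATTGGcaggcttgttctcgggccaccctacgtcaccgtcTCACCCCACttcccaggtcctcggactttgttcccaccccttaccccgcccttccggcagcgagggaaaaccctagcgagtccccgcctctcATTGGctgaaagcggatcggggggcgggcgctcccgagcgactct
Mvk: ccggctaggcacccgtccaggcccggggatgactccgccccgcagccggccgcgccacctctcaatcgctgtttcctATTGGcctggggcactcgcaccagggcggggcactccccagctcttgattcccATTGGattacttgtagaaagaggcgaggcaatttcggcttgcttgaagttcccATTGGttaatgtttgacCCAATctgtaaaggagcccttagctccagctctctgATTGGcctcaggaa
Idi1: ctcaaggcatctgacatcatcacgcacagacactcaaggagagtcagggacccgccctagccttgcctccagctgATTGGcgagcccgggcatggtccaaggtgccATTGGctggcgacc
The log2 differences between KO and WT animals of these 3 genes were 0.48, -0.29 and 0.26, none of them past the test.

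The steps from acetyl-CoA to farnesyl diphosphate were represented by 6 genes, of which 2 were higher and 4 lower in KO by value, and the median log2 difference was -0.13. Hmgcs1, the cytosolic HMG-CoA synthase at the start of the mevalonate pathway, had the largest difference of the whole group. It is also the member whose promoter matched the 1 form of the sterol regulatory element searched. The Hmgcs1 signal was 5044 (2L), 8965 (5L) and 8769.7 (6L) in WT lenses and 11709 (1L), 10931 (1R), 11231 (4L) and 8145 (7L) in KO lenses. Thus 3 of the 4 KO lenses were above every WT lens, while 7L fell between WT lenses. After quantile normalization, which brings all arrays to the same distribution, the KO lenses all lay above the WT lenses, with log2 means of 13.30 ± 0.17 for KO animals and 12.82 ± 0.37 for WT animals (SD, n = 3 each). The difference was 0.48 (SE 0.22, limma unadjusted p = 0.0566) and dropped to 0.27 without WT animal 2, whose lens was the lowest. Of the other Hmgcs1 probe sets above the bacterial control in every lens, those next in brightness differed by 0.17 and 0.11 and a weak one, with signals of 101 to 326, by -0.09.

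Mvk, mevalonate kinase, had signals of 399 (2L), 372 (5L) and 370.0 (6L) in WT lenses and 460.5 (1L), 332 (1R), 382 (4L) and 205 (7L) in KO lenses. The WT lenses were close together and the KO lenses straddled them, with 7L the lowest of all. Pmvk, the kinase of the next step, was at 1133, 1327 and 1314 in WT lenses 2L, 5L and 6L and at 1164, 823, 1062 and 1155 in KO lenses 1L, 1R, 4L and 7L. Its groups overlapped only between WT 2L and the KO lenses 1L and 7L, and the difference was -0.22 (SE 0.20). Mvd, the decarboxylase that yields isopentenyl diphosphate, ranged from 186 to 341 in WT and from 191 to 376 in KO lenses, and differed by -0.05.

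Idi1, the isomerase of isopentenyl diphosphate, was at 1700.3 (2L), 882 (5L) and 736 (6L) in WT lenses and at 1101 (1L), 1703 (1R), 1068 (4L) and 1314 (7L) in KO lenses. At this probe set WT lens 2L and KO lens 1R were the high ones, and the other 2 WT lenses lay below all KO lenses. The log2 difference was accordingly 0.26 (SE 0.29) over all animals and 0.58 without WT animal 2, where the limma unadjusted p was 0.0317. The weaker Idi1 probe set did not have 2L high, at 560, and its highest lens was KO 7L, at 932. It differed by 0.45 (SE 0.23, limma unadjusted p = 0.0772) over all animals. Fdps, farnesyl diphosphate synthase, showed 509 (2L), 432 (5L) and 262 (6L) in WT and 300.2 (1L), 254 (1R), 355 (4L) and 354 (7L) in KO lenses. Here 2 of the 3 WT lenses were above all KO lenses and 6L was among the lowest, for a difference of -0.26 (SE 0.29), which was -0.50 without WT animal 6 and -0.13 without WT animal 2.

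**Figure D2:**
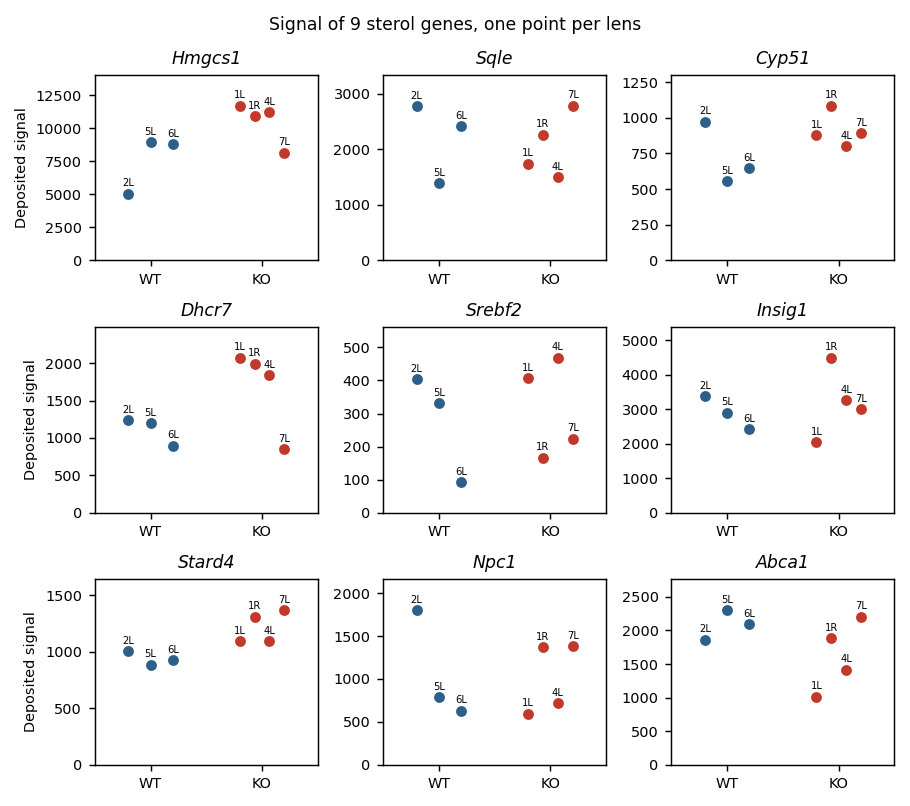
Deposited signal (y axis, linear, from 0) of 9 genes in each lens, WT in blue and KO in red, one labelled point per lens. In the Hmgcs1 panel 3 KO lenses lie at 10931 to 11709 above all WT lenses, in the Stard4 panel all 4 do, and in the other panels the groups overlap.

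The 12 genes from squalene synthesis to cholesterol were 7 higher and 5 lower in KO by value, and the median log2 difference was 0.09. Fdft1, squalene synthase, was at 2629.8, 3549 and 4047 in WT lenses 2L, 5L and 6L and at 3944, 3406, 4265 and 3167 in KO lenses 1L, 1R, 4L and 7L, a difference of 0.15 (SE 0.22). Sqle, squalene epoxidase, a rate-limiting enzyme of the pathway, had signals of 2787 (2L), 1386 (5L) and 2418 (6L) in WT and of 1745 (1L), 2267 (1R), 1503 (4L) and 2792 (7L) in KO lenses. The groups covered the same range for Sqle, and the difference of -0.04 (SE 0.30) was far smaller than the spread between lenses.

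Lss, lanosterol synthase, whose loss causes cataract in rats and people, was at 776 (2L), 427 (5L) and 476 (6L) in WT lenses and at 490.4 (1L), 896 (1R), 620.2 (4L) and 478 (7L) in KO lenses. At this probe set WT lens 2L and KO lens 1R were again the highest lenses, and the difference was 0.09 (SE 0.27). A weaker Lss probe set above the bacterial control in every lens had WT lens 6L highest, at 585, and 2L at 326. It differed by -0.26 (SE 0.31). For Cyp51, lanosterol demethylase, the WT lenses were at 973 (2L), 559 (5L) and 646 (6L) and the KO lenses at 879 (1L), 1086 (1R), 799 (4L) and 891 (7L). All KO lenses exceeded 5L and 6L but only 1R exceeded 2L. The Cyp51 difference was 0.32 (SE 0.24, limma unadjusted p = 0.211), its other bright probe set gave 0.33, and without WT animal 2 the difference was 0.49.

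Tm7sf2 and Lbr are sterol reductases with the same activity, Lbr being also a lamin-binding protein of the inner nuclear membrane. Tm7sf2 was at 1313 (2L), 658 (5L) and 670.2 (6L) in WT lenses and at 779 (1L), 713 (1R), 935 (4L) and 486 (7L) in KO lenses. Lbr was at 1155 (2L), 1214 (5L) and 1089 (6L) in WT lenses and at 790.3 (1L), 1344 (1R), 1059 (4L) and 1722 (7L) in KO lenses. KO lens 7L was thus the lowest of all for Tm7sf2 and the highest for Lbr, and the group differences were -0.25 (SE 0.32) and 0.12 (SE 0.24). The Tm7sf2 value was 0.028 without WT animal 2 and 0.020 without KO animal 7.

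Msmo1, Nsdhl and Hsd17b7 together strip methyl groups from the sterol ring. Msmo1, the oxidase, ranged from 699.5 to 1459 in WT and from 590.0 to 1296 in KO lenses, with a difference of -0.10. Nsdhl, the X-linked dehydrogenase, was at 1189.6 (2L), 869.8 (5L) and 1157 (6L) in WT and at 665 (1L), 808 (1R), 1165 (4L) and 885 (7L) in KO lenses, a difference of -0.22 (SE 0.25). Hsd17b7, the ketoreductase, was at 633 (2L), 1158 (5L) and 819.6 (6L) in WT and at 1076 (1L), 1572 (1R), 973 (4L) and 639 (7L) in KO lenses. It differed by 0.16 (SE 0.33) at this probe set and by -0.76 (SE 0.37, limma unadjusted p = 0.0699) at a weaker one, so no direction can be given for the gene.

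The closing steps are the isomerase Ebp, the desaturase Sc5d and the reductase Dhcr7, whose loss leaves cholesterol precursors to accumulate in Smith-Lemli-Opitz syndrome. Ebp ranged from 1813 to 2304 in WT and from 1663 to 2633 in KO lenses and differed by 0.08, or by -0.02 with median centring of the arrays. Sc5d was at 996 (2L), 800.1 (5L) and 847 (6L) in WT and at 864 (1L), 841 (1R), 660.2 (4L) and 877 (7L) in KO lenses, the narrowest range of the group. Its difference was -0.15 (SE 0.21).

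Dhcr7 split the KO lenses. Its signals were 1239.8 (2L), 1200.1 (5L) and 898 (6L) in WT lenses and 2075 (1L), 1997 (1R), 1843 (4L) and 855 (7L) in KO lenses. The lenses of KO animals 1 and 4 were clearly above all WT lenses and that of KO animal 7, the male, was below all of them. The log2 means were 10.55 ± 0.72 for KO animals and 10.12 ± 0.21 for WT animals (SD, n = 3 each), with a difference of 0.43 (SE 0.33, limma unadjusted p = 0.231). Without KO animal 7 the difference was 0.84 (limma unadjusted p = 0.00407), and without KO animal 1 it was 0.18. The sex of animal 7 and its own variation cannot be told apart in this design.

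**Figure D3:**
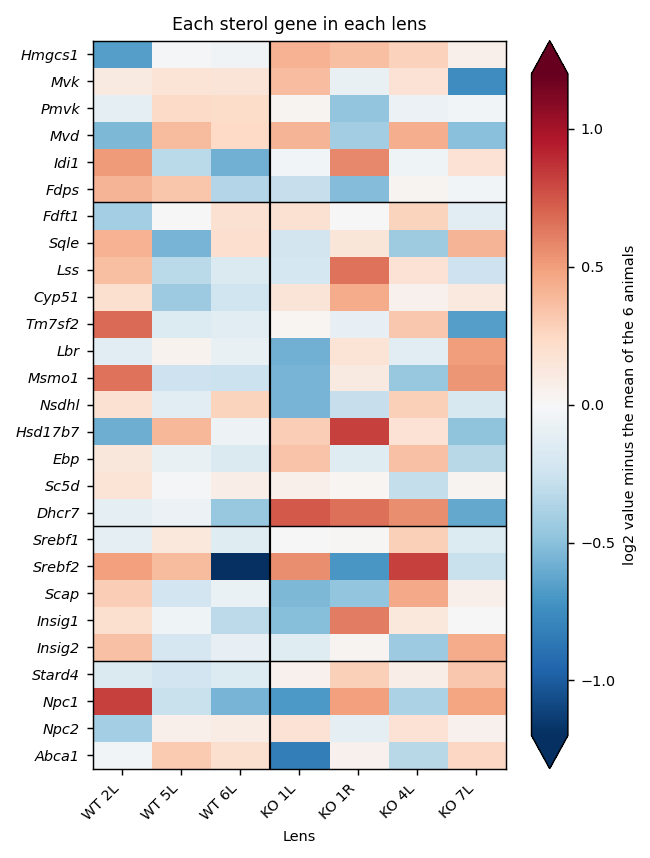
Log2 value of each gene in each lens minus the gene's mean over the 6 animals (colour scale, log2 units), genes in rows separated by role and lenses in columns, WT left of the black line. No column is uniformly red or blue: WT 2L is the highest lens for 6 genes and the lowest for 5, and KO 7L the highest for 3 and the lowest for 5.

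Among the 5 genes of sterol sensing and control, 4 were higher and 1 lower in KO by value, and the median log2 difference was 0.09. Srebf1, whose products favour fatty acid genes, was at 5989 (2L), 8298 (5L) and 6835 (6L) in WT lenses and at 7319 (1L), 7238 (1R), 9479 (4L) and 6111 (7L) in KO lenses, a difference of 0.09 (SE 0.19). Its standard error was the smallest of the group, and its 95% interval ran from 0.789-fold to 1.44-fold. Srebf2, the main driver of cholesterol genes, was at 405 (2L), 333 (5L) and 92.0 (6L) in WT and at 408 (1L), 167 (1R), 469 (4L) and 224 (7L) in KO lenses. At its brightest probe set Srebf2 was the most variable member, with the highest lens at 5.10 times the lowest. The difference there was 0.32 (SE 0.51), and -0.27 without WT animal 6. The other Srebf2 probe set had a narrower range, from 171 to 346, with WT lens 6L at 214. It differed by 0.34 (SE 0.30).

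Scap, the escort of the SREBPs, was at 3303 (2L), 2355 (5L) and 2606 (6L) in WT and at 1835 (1L), 1957 (1R), 3803 (4L) and 2861 (7L) in KO lenses. Both lenses of KO animal 1 were below every WT lens and that of KO animal 4 above them, and the difference was 0.01 (SE 0.27), or -0.09 with median centring. Insig1, a retention protein that is itself induced by SREBPs, was at 3363 (2L), 2893 (5L) and 2412 (6L) in WT and at 2035 (1L), 4487 (1R), 3264 (4L) and 2999 (7L) in KO lenses. The 2 eyes of KO animal 1 were the lowest and the highest Insig1 values of the study, so that their mean hides a log2 gap of 1.13, and the group difference was 0.12 (SE 0.20). Insig2, the other retention protein, was at 2448 (2L), 1639 (5L) and 1742 (6L) in WT and at 1655 (1L), 1913 (1R), 1352 (4L) and 2608 (7L) in KO lenses, a difference of -0.03 (SE 0.26).

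Of the 4 genes of sterol transport and efflux, 2 were higher and 2 lower by value, with a median of 0.09. Stard4, a cytosolic carrier that shuttles sterol between membranes, had signals of 1006 (2L), 884 (5L) and 925 (6L) in WT and of 1092 (1L), 1309 (1R), 1094 (4L) and 1369 (7L) in KO lenses. All KO lenses were above all WT lenses, by a small step. Means were 10.27 ± 0.12 for KO animals and 9.89 ± 0.04 for WT animals (log2, SD, n = 3 each), with a difference of 0.38 (SE 0.20, limma unadjusted p = 0.0821). Both other Stard4 probe sets lay slightly the other way, at -0.06 and -0.16.

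Hmgcs1 and Stard4 were the only members whose normalized KO and WT lenses did not overlap. That is 2 of 27 (7.41%) with KO higher, against 2.56% of all probe sets, and 0 of 27 with KO lower, against 2.76%. The count of 2 was 1 (Pmvk, KO lower) with median centring, 1 (Stard4) with the signals as deposited and 5 without WT animal 2. The share of all probe sets without overlap in either direction was 5.94%, 5.28% and 15.3% in these settings, in that order.

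Npc1 and Npc2 pass cholesterol out of lysosomes. Npc1, the membrane protein, was at 1804 (2L), 785 (5L) and 631 (6L) in WT and at 597 (1L), 1373 (1R), 719 (4L) and 1386 (7L) in KO lenses. Each group had low and high lenses, the eyes of KO animal 1 differed by 1.19 on the log2 scale, and the group means were both 9.94. The equal means rested on WT lens 2L, and the log2 difference without WT animal 2 was 0.41. Npc2, the soluble partner, was at 10741 (2L), 20779 (5L) and 22137 (6L) in WT and at 21137 (1L), 16417 (1R), 22668 (4L) and 16084 (7L) in KO lenses. Only 2L was clearly lower, and the difference was 0.18 (SE 0.20), with another bright Npc2 probe set at -0.24 (SE 0.18). Without WT animal 2 the difference was 0.014.

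Abca1, which exports cholesterol to apolipoproteins and is switched on when sterols accumulate, had the most negative difference of the group. WT lenses were at 1863 (2L), 2305 (5L) and 2088 (6L) and KO lenses at 1014 (1L), 1884 (1R), 1416 (4L) and 2207 (7L). KO lenses 1L and 4L were below all WT lenses and the others among them, for a difference of -0.31 (SE 0.23, limma unadjusted p = 0.201), or -0.52 without KO animal 7. The other Abca1 probe sets had positive differences of 0.78 and 0.47 but did not exceed that control in 3 and 6 of the 7 lenses, so they do not settle the direction.

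The probe sets of a gene often disagreed in direction, as the plot of probe sets shows. Of the 27 genes, 17 had more than 1 probe set. Of their 32 further probe sets, 20 were above the highest bacterial control in all lenses. These differed from WT in the same direction as the brightest probe set in 11 cases and in the opposite direction in 9. None of the 32 passed an adjusted p of 0.05 or an unadjusted p of 0.05 in limma, the smallest p being 0.0699. The position of each probe set in its transcript was not used here.

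**Figure D4:**
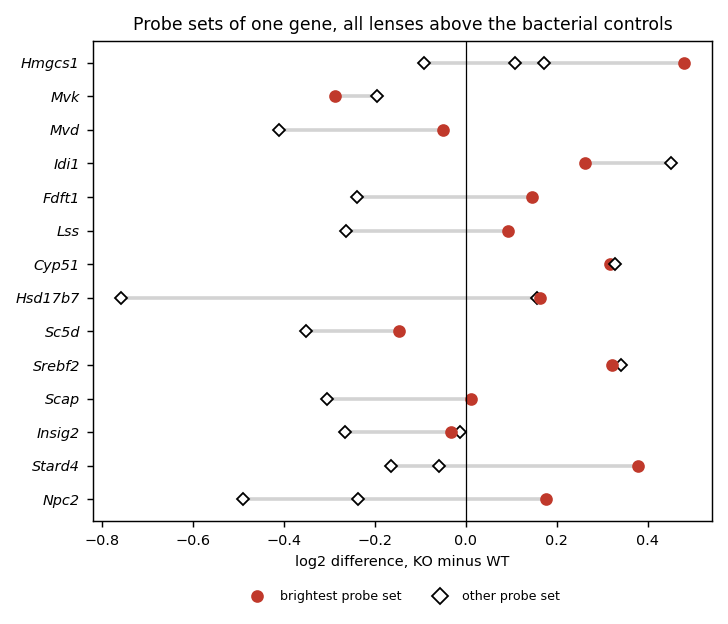
Log2 difference between KO and WT animals (x axis) for each probe set of the 14 genes with more than 1 probe set above the bacterial controls in every lens, the brightest as a filled circle and others as open diamonds. For Cyp51 and Srebf2 the probe sets nearly coincide, while for Hsd17b7, Stard4 and Npc2 they lie on both sides of 0.

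The lenses of a single animal differed as much as the groups did. Between the right and left eye of KO animal 1 the median absolute log2 difference over the 27 genes was 0.36, with the right eye higher for 15. The median absolute KO minus WT difference was 0.16, and the gap between eyes was the larger for 19 of 27 genes. The same held for all genes on the array, at 0.42 and 0.20. A gap between single lenses carries more noise than a difference between means of 3 animals, so these values describe the scatter and are not a test. No lens stood out for the pathway as a whole. The median deviation of the 27 genes from their 6-animal means was between -0.10 (6L) and 0.17 (2L and 4L), beside -0.04 to 0.03 for all genes.

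Leaving out WT animal 2, whose lens had the lowest Gapdh ratio, moved many of these small differences. The sign turned for 7 of 27 genes, and for 13 more the size moved by over 1.5 times. The sign of Fdft1 turned to -0.020, that of Hsd17b7 to -0.087, and those of Sqle, Tm7sf2, Msmo1, Insig2 and Npc1 to 0.16, 0.028, 0.21, 0.13 and 0.41. Of those that moved in size, Srebf2 was at 0.65, Lss at 0.30, Insig1 at 0.24, Ebp at 0.17, Scap at 0.16 and Srebf1 at 0.05, and, in the mevalonate pathway, Mvd and Pmvk were both at -0.33. By value 18 genes were then higher and 9 lower, with a median log2 difference of 0.13. The 1 gene of the 27 with an unadjusted limma p under 0.05 was then Idi1, against 5.87% of all probe sets.

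Other genes of sterol metabolism were read from a list made by role. Of 29 listed genes, 22 had a probe set with a single symbol. By value 13 were higher and 9 lower in KO, the median log2 difference was 0.04, and 0 passed the adjusted threshold in limma. Acat1, the mitochondrial thiolase of ketone body and isoleucine metabolism, was the 1 gene of the 22 with an unadjusted p under 0.05, against 4.06% of all probe sets. It was at 1426 (2L), 1669 (5L) and 1926 (6L) in WT and at 2299 (1L), 2262 (1R), 2569.9 (4L) and 2596 (7L) in KO lenses, all KO lenses above all WT lenses. The difference was 0.60 (SE 0.20, limma unadjusted p = 0.0142), but the 2 other Acat1 probe sets gave 0.18 and -0.20. Ch25h, which makes an oxysterol, differed by 0.76 (SE 0.42) at signals of 36.1 to 174, with 1 lens under the bacterial control. Vldlr, a lipoprotein receptor, differed by 0.34 (SE 0.26) at its brightest probe set and by -0.21 to -0.07 at its 5 others.

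Fatty acid genes linked to SREBPs were mostly higher in KO by value without passing the test. Of 17 genes, 14 were higher and 3 lower, with a median log2 difference of 0.18, beside 8326 of 18193 genes higher and a median of -0.03 on the array, and 0 passed the adjusted threshold in limma, while 2 had an unadjusted p under 0.05, against 4.06% of all probe sets. Acss2, which makes acetyl-CoA from acetate, was at 335 (2L), 478 (5L) and 429.8 (6L) in WT and at 679 (1L), 782 (1R), 831 (4L) and 793 (7L) in KO lenses. All 4 KO lenses were clearly above all WT lenses, and the difference was 0.89 (SE 0.25, limma unadjusted p = 0.00501, adjusted p = 0.99988), or 0.71 without WT animal 2. A second Acss2 probe set of like brightness, with signals of 327 to 676, differed by only -0.06 (SE 0.28).

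Acly, which makes cytosolic acetyl-CoA from citrate, was at 3776 (2L), 6077 (5L) and 5834 (6L) in WT and at 5919.9 (1L), 7019 (1R), 8869 (4L) and 7442 (7L) in KO lenses. The groups overlapped in the deposited signals, WT lens 5L being slightly above KO lens 1L. After quantile normalization all KO lenses lay above all WT lenses, as for 2.56% of all probe sets. The Acly difference was 0.58 (SE 0.21, limma unadjusted p = 0.0222) and that of the next brightest Acly probe set 0.11 (SE 0.25). Elovl5, a fatty acid elongase, differed by 0.47 (SE 0.24) and by -0.09 at its other probe set.

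**Figure D5:**
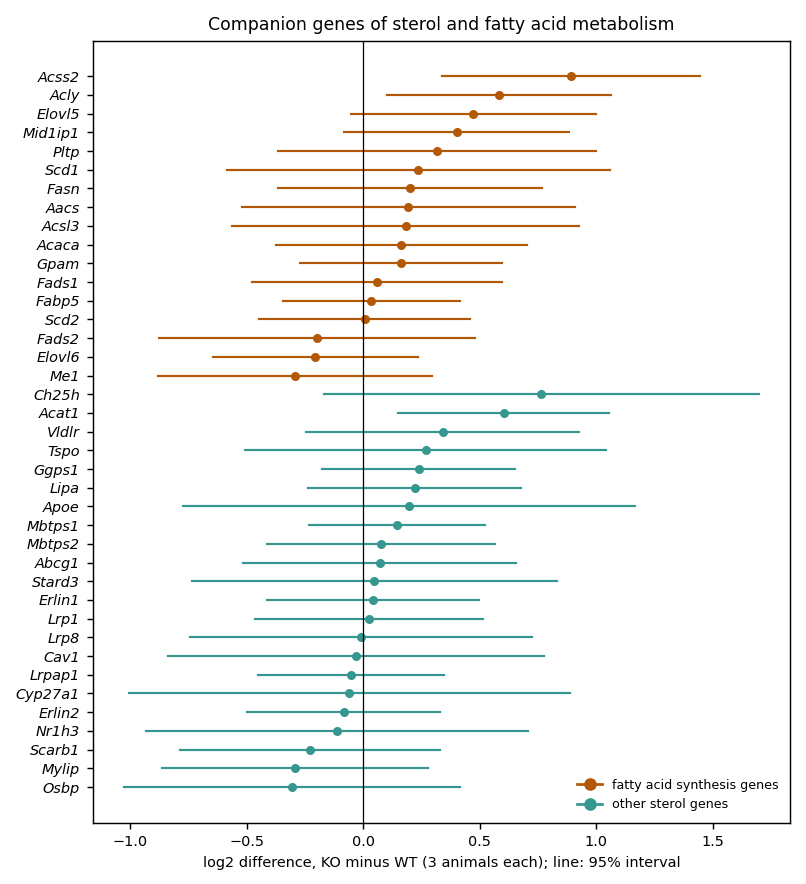
Log2 difference between KO and WT animals (x axis) with 95% intervals (3 animals against 3) for 17 fatty acid genes and 22 other sterol genes, sorted by size within each list. Acss2, Acly and Acat1 are the genes whose intervals lie above 0, and none passed adjustment over all probe sets.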

How the data were processed

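Per the labels' protocols, each lens was cryosectioned and stained, epithelium was cut out by laser capture, and RNA was amplified through 2 cycles before biotin labelling. What the authors deposited is an intensity (linear signal) for each probe set. The summary software and background correction are not stated in the labels. The table's 64 control probe sets were left out and 45037 kept. Values became log2(signal + 16), which understates changes of weak probe sets, and were quantile normalized. Lenses 1L and 1R were averaged. KO and WT animals were compared across all probe sets with limma 3.58.1 (intensity trend, two-sided, Benjamini-Hochberg over all probe sets) in R 4.3.3. The code was tested on simulated data. Where nothing else is said, levels in lenses are deposited signals and differences are log2, KO minus WT.

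All members are named. Values per lens are given for 15 measured genes of main steps, 8 more with the smallest p and, outside this rule, Scap, and up to 3 genes of each companion list are named by smallest p. The members and lists were chosen with earlier results of these data known, so no test over a list was made. Alternatives comprised other normalizations, pseudocounts of 1 and 64, a filter, array weights, no trend, single eyes, all lenses, mean probe sets and leaving out each animal. Gene names came from the platform annotation, promoters from RefSeq.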

Additional observations from a re-analysis of the deposited data

Results flagged for a closer look

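In 2 of the 27 genes, 1 of the 4 KO lenses lay far from the others by Dixon's test, which flags about 1 in 20 groups by chance. Dhcr7 was at 855 in KO lens 7L and at 1843 to 2075 in the other KO lenses. Sc5d was at 660.2 in KO lens 4L and at 841 to 877 in the others. 1L and 1R come from the same animal. The cause was not tested.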

How the results depend on the processing

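No gene of the group passed an adjusted p of 0.05 under any alternative run, including an adjusted p of 0.1 as the threshold. The number with an unadjusted limma p under 0.05, 0 as reported, was 1 with all 7 lenses as independent samples (Hmgcs1), 1 with the filter on low values (Hmgcs1), 2 with array weights (Hmgcs1, Abca1), and 0 to 3 when lenses or animals were left out, the 3 being Hmgcs1, Dhcr7 and Abca1 without KO animal 7. The share of all probe sets under 0.05 was 4.41%, 3.42%, 6.99% and 4.45% in these settings, in that order. The number without overlap, 2 as reported, was 1 with median centring, 1 with the signals as deposited, 1 with a gene's probe sets averaged (Fdps), and 2 to 5 with lenses or animals left out, where 8.22% to 16.5% of all probe sets did not overlap. That share was 5.94% with median centring and 5.28% with the signals as deposited. With probe sets averaged it was 5.36% of all genes. The median difference, 0.08 as reported, was for example -0.0067 without KO lens 1R and 0.13 without WT animal 2. The spread between animals in the median of the group was 0.12 (pooled SD). The direction held under every alternative for 10 of 27 genes and turned at least once for 17, in 51 of 459 values. With all 7 lenses Scap was at -0.12. With median centring Ebp was at -0.019 and Scap at -0.085. With the signals as deposited Mvd was at 0.0020 and Npc1 at 0.0035, and with a pseudocount of 1 Npc1 was at 0.00012. With array weights Sqle was at 0.060, Lbr at -0.038, Scap at -0.13 and Npc1 at 0.044. With probe sets averaged Fdft1 was at -0.11, Hsd17b7 at -0.18, Scap at -0.15, Abca1 at 0.31, Ggps1 at -0.10 and Vldlr at -0.055. Leaving out lenses or animals gave ranges of -0.44 to 0.011 for Mvk, -0.33 to 0.19 for Mvd, -0.020 to 0.27 for Fdft1, -0.33 to 0.17 for Sqle, -0.052 to 0.30 for Lss, -0.47 to 0.028 for Tm7sf2, -0.11 to 0.25 for Lbr, -0.39 to 0.21 for Msmo1, -0.087 to 0.45 for Hsd17b7, -0.074 to 0.27 for Ebp, -0.032 to 0.19 for Srebf1, -0.27 to 0.65 for Srebf2, -0.21 to 0.27 for Scap, -0.071 to 0.30 for Insig1, -0.26 to 0.18 for Insig2 and -0.28 to 0.41 for Npc1. The cause was not tested. A random block for the animal was not run, because its correlation could not be estimated from the only animal with 2 lenses. The same alternatives for the companion genes were added after seeing the data.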

Other observations

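The branch from farnesyl diphosphate to protein prenylation, ubiquinone and dolichol was listed with 10 genes, of which 9 were measured, all above the highest bacterial control in every lens. By value 3 were higher and 6 lower in KO, the median log2 difference was -0.09, and 0 had an unadjusted limma p under 0.05, against 4.06% of all probe sets. Ggps1, which makes geranylgeranyl diphosphate, differed by 0.24 (SE 0.18) at its brightest probe set and by -0.27 to -0.19 at its 3 others. Coq2, a prenyltransferase of ubiquinone synthesis, differed by -0.22 (SE 0.20), and Rabggtb, a subunit of Rab prenyltransferase, by -0.26 (SE 0.26).

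After subtraction of group means, the 351 pairs of the 27 genes had a median Pearson correlation of 0.01 across the 6 animals, beside 0.0070 for all pairs of genes on the array. A correlation of at least 0.8 was found in 8.55% of the pairs and in 6.29% of all pairs. The points share arrays and normalization, and no test was made.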
